A study of Homo sapiens with 24 samples.

Results

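This comparison asked what HC added in 1321N1 cells that also received EGCG. 1321N1 is an established human cell line, labelled as a grade II glioma of the brain. EGCG is epigallocatechin-3-gallate, a catechin of green tea, and HC is hydroxychavicol, a phenol of betel leaf with a catechol ring. The comparison holds 6 libraries of the 12 made from 1321N1 cells and of the 24 in the series. In 3 of them the cells received 50 µg/ml EGCG, and in the other 3 they received 50 µg/ml EGCG with 20 µg/ml HC, each for 24 h. The 3 control and 3 HC libraries of 1321N1 were used only where the response to HC was compared with and without EGCG. HC was dissolved in ethanol and EGCG in medium. The paper's vehicle control held ethanol, but whether the cells given EGCG alone also received it is not given in the sources used here. HC and its ethanol therefore cannot be told apart in this comparison. The labels describe the replicates as independent tests of this single cell line.

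Values are RPKM, the reads of a gene scaled to its length and to the reads of its library, so levels can be compared between genes. They are shares of the RNA sequenced, and in such bulk samples fewer cells of a kind and less RNA per cell cannot be told apart. A fold change is the difference of group means of log2(RPKM + 1), which understates the change of genes of low level, and a gene was called where its limma adjusted p was at most 0.05 and it differed by at least 1.5-fold. Counted reads were worked out from the spacing of low values within each library. Their number was 28.98 M, 15.3 M and 17.7 M in the EGCG libraries and 22.8 M, 25.8 M and 20.98 M in the EGCG+HC libraries. In EGCG replicates 2 and 3, 60.0% and 57.7% of the low values came out whole within 0.1 read, against 86.2% in replicate 1, so their depth is the least certain. These same libraries list 0 for 1239 genes that have a value in the other 4 libraries. Those genes were set apart before the fit and are described last. Of 15 glial markers, 13 were listed and 5 had a mean of 1 RPKM or more over the 6 libraries. In this list VIM and CD44 had means of 801 and 42.0 RPKM in EGCG cells, while GFAP and SLC1A3 stood at 0.074 and 0.344 RPKM. Of the neuron, blood and epithelial or endothelial markers, only SYT1, CD68 and KRT14 had a mean of 1 RPKM or more over the 6 libraries. Blood and immune markers summed to 30.0 to 32.9 RPKM with EGCG and 31.4 to 31.8 RPKM with EGCG+HC. Neuron markers summed to 2.449 to 2.722 RPKM with EGCG and 2.745 to 3.157 RPKM with EGCG+HC. For epithelial and endothelial markers the sums were 1.888 to 2.632 RPKM and 1.4 to 1.764 RPKM.

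Several stress pathways are background to what follows. The heat shock factor HSF1 turns on chaperone genes when proteins misfold, and NRF2 turns on antioxidant and detoxifying genes when its inhibitor KEAP1 is modified by electrophiles or oxidants. The integrated stress response works through phosphorylation of eIF2alpha and the transcription factors ATF4 and CHOP, and the metal sensor MTF1 drives metallothionein and zinc export genes. Catechols can be oxidised to quinones, which react with protein thiols.

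Adding HC to EGCG raised HMOX1, chaperones, genes of the integrated stress response and immediate early genes, and lowered genes of mitosis and DNA replication. Of 13774 genes tested, 5420 were called, a share of 39.3%, with 2554 higher (18.5%) and 2866 lower (20.8%) in EGCG+HC. Which direction holds more genes depends on the processing, with 2873 higher and 2331 lower after rescaling to a common median. The rises were steeper: 312 genes rose at least 4-fold and 40 fell at least 4-fold. The median log2 change of all genes was -0.11. With so large a share of genes called, the count of members called in any gene list below is to be read against these shares. With EGCG replicate 1 as the only EGCG library, 4864 of the 5420 genes were called in the same direction.

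**Figure D1:**
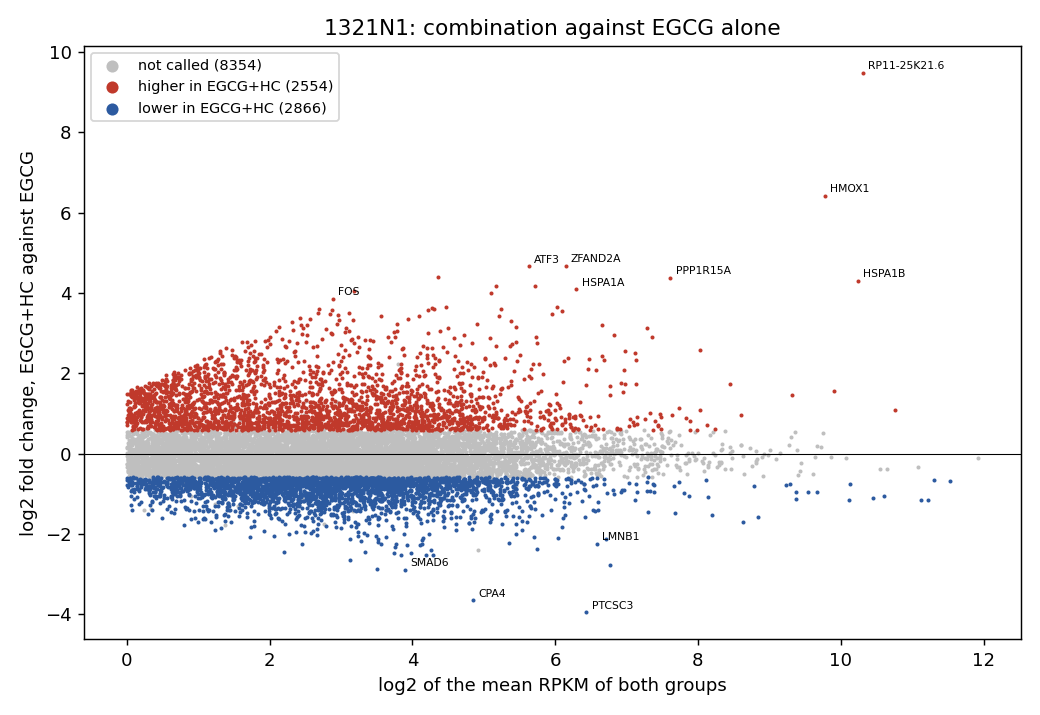
Log2 fold change of EGCG+HC against EGCG (y axis) by the log2 of the mean RPKM of both groups (x axis), with 1 point for each of the 13774 genes tested in 3 libraries a group. The 2554 genes called higher reach a log2 change of 9.48, while the 2866 called lower reach -3.95.

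HMOX1, heme oxygenase 1, degrades heme and is a classical target of NRF2. It lies on chromosome 22, 35776354 to 35790207 (GRCh37, as for all gene positions given here). Its values were 18.7, 18.9 and 19.8 RPKM in the EGCG libraries and 1778, 1782 and 1633 RPKM in the EGCG+HC libraries. The groups were far apart, with a log2 change of 6.43 (SE 0.05, limma adjusted p = 5.68e-09), the steepest rise of any named protein-coding gene. Control cells had a mean of 13.03 RPKM and cells given HC alone 1395 RPKM. Only the transcript RP11-25K21.6 rose more, from 2.19, 2.93 and 2.55 RPKM to 2525, 2627 and 2449 RPKM, a log2 change of 9.48 (SE 0.08, limma adjusted p = 5.72e-09). Its symbol was not matched in the reference annotation used here, in which 65.8% of all symbols were matched, so no position or role is given.

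The heat shock list showed 18 of 31 tested members higher and 1 lower, with a median log2 change of 0.67 against -0.11 for all genes. HSPA1A, an inducible HSP70 chaperone on chromosome 6, 31783320 to 31785723, had 7.09, 7.40 and 8.99 RPKM with EGCG and 143, 151 and 154 RPKM with EGCG+HC. Its near-identical copy HSPA1B went from 105, 114 and 125 to 2238, 2379 and 2264 RPKM. Reads of this pair can be assigned to either gene, so their split is uncertain, but both rose, by 4.10 and 4.31 on the log2 scale. ZFAND2A, which codes for the arsenite-inducible protein AIRAP that associates with the proteasome, had 4.29, 4.23 and 4.74 RPKM and then 135, 139 and 138 RPKM, a log2 change of 4.67 (SE 0.04, limma adjusted p = 1.03e-08). The small heat shock protein HSPB8 rose by 3.30 and its co-chaperone BAG3 by 2.96. The 3 members with the highest EGCG means were not called. HSPA8 had means of 571 and 389 RPKM and a log2 change of -0.55 (SE 0.04, limma adjusted p = 2.39e-05), short of the 1.5-fold limit, which it passed without EGCG+HC replicate 3 (-0.59). HSP90AB1 had means of 703 and 1013 RPKM and a log2 change of 0.53, and it was called higher after rescaling to a common median (0.62). HSP90AA1 had means of 1114 and 1035 RPKM with a log2 change of -0.11 (SE 0.04, limma adjusted p = 0.0573), which did not pass the test. The regulator HSF1 itself had a log2 change of -0.24 and was not called. STUB1, a ubiquitin ligase of chaperones, was the member that fell, by 0.63, a call lost after rescaling to a common median.

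Promoter windows of 300 bases around the transcription start (RefSeq, GRCh38.p14) were searched on both strands for heat shock elements, spelled GAANNTTC or TTCNNGAA, and for metal response elements, spelled TGCACNC or TGCGCNC. Each heat shock spelling is its own reverse complement. Heat shock elements were in 13.7% of 27305 promoters. They were in 12 of the 27 heat shock members that matched a window, and in 10 of the 17 matched members that rose. Metal response elements were in 29.3% of all promoters and in 3 of 5 matched members of the metallothionein and zinc list, all 3 among the 4 that rose. The antioxidant response element TGACNNNGC was in 13.6% of all promoters and in 8 of 26 matched NRF2 members, of which 3 were among the 13 that rose. The ATF4-CHOP element TGATGNAA was in 3.67% of all promoters and in 3 of 23 matched members of the integrated stress response, of which 1 was among the 14 that rose. These are matches of letters, not shown sites. The promoters of HSPA1A (chr6:31815293-31815592, plus strand), HSPB8 (chr12:119178681-119178980, plus strand), MT2A (chr16:56608334-56608633, plus strand) and SLC30A1 (chr1:211579112-211579411, minus strand) are shown because these genes rose and their windows hold a match, and they were chosen after the matches were seen. Capitals mark the heat shock elements in HSPA1A and HSPB8 and the metal response elements in MT2A and SLC30A1.
HSPA1A: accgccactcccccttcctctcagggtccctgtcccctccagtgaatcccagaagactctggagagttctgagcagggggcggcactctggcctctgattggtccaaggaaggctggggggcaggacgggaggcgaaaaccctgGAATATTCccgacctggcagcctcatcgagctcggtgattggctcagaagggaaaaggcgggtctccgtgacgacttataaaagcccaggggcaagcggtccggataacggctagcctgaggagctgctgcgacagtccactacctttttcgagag
HSPB8: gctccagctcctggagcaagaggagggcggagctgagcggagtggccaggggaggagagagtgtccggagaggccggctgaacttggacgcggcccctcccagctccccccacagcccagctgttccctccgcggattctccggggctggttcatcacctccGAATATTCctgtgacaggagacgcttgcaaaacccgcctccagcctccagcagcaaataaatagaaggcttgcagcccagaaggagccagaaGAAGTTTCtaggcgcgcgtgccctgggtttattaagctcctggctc
MT2A: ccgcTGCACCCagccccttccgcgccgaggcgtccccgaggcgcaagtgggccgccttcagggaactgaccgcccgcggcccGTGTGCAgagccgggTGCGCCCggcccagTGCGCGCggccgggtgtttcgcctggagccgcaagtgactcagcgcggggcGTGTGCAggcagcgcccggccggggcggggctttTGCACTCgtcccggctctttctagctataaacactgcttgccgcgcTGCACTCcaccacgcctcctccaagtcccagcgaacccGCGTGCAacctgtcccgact
SLC30A1: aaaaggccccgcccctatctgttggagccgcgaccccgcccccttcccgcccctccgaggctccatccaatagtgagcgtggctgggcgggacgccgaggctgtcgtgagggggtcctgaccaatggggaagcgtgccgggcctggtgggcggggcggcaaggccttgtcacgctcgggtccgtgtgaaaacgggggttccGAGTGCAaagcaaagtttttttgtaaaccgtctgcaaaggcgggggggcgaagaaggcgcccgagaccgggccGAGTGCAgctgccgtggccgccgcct

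In the list of NRF2 targets and partners, 17 of 33 tested members were higher and 2 lower, with a median log2 change of 0.70. AKR1C1, an aldo-keto reductase, had 3.02, 3.02 and 2.71 RPKM with EGCG and 69.4, 68.9 and 70.2 RPKM with EGCG+HC, a log2 change of 4.17 (SE 0.04, limma adjusted p = 1.03e-08). AKR1C genes are close paralogs, so reads can be shared between them. MAFF, a small MAF protein that pairs with NRF2, rose by 3.13 and OSGIN1 by 3.02. GCLM, the modifier subunit of the enzyme that limits glutathione synthesis, went from 19.1 to 62.2 RPKM, and its catalytic partner GCLC rose by 0.76. NQO1, a quinone reductase, had 74.1, 78.2 and 75.96 RPKM and then 106, 105 and 108 RPKM. Its groups did not overlap, but its log2 change of 0.48 (SE 0.03, limma adjusted p = 1.05e-05) was short of the 1.5-fold limit. NFE2L2, the gene of NRF2, rose by 1.26, and KEAP1 had a log2 change of -0.37 and was not called. The members that fell were TKT, a pentose phosphate enzyme, and GSTA4, of which only TKT was still called after rescaling to a common median.

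Of 22 heme and iron genes tested, 4 were higher and 7 lower, or 4 lower after rescaling to a common median. In the main fit 18.5% of all genes were higher and 20.8% lower. The iron storage chains FTH1 and FTL went from 337 to 935 RPKM and from 1112 to 2356 RPKM, and BACH1, a heme-sensing repressor, rose by 1.57. The members that fell included the transferrin receptor TFRC and the heme synthesis enzymes ALAD, CPOX and PPOX, by 0.67 to 0.99. In the metallothionein and zinc list, 5 of the 6 members that could be tested were higher. The zinc exporter SLC30A1 went from 9.74 to 55.2 RPKM, a log2 change of 2.39 (SE 0.06, limma adjusted p = 1.56e-07). MT2A had 50.7, 52.7 and 63.03 RPKM with EGCG and 111, 111 and 101 RPKM with EGCG+HC, a rise of 0.95, while control cells had a mean of 113 RPKM. Its sensor MTF1 rose by 1.42.

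The integrated stress response had 17 of 28 tested members higher and 3 lower, with a median of 1.03. ATF3, a stress-induced transcription factor on chromosome 1, 212738676 to 212794119, had 2.70, 2.86 and 2.91 RPKM and then 96.3, 96.5 and 95.2 RPKM, a log2 change of 4.66 (SE 0.03, limma adjusted p = 5.68e-09). PPP1R15A, which codes for GADD34 and directs the removal of phosphate from eIF2alpha, had 16.4, 17.8 and 16.9 RPKM and then 359.9, 383 and 379.6 RPKM. DDIT3, the gene of CHOP, rose by 3.15, and GDF15, a secreted stress factor, by 3.24. ATF4 itself rose by 0.70, from 132 to 215 RPKM. The members that fell were ATF5 and the eIF2alpha kinases EIF2AK2 and EIF2AK4, whereas the kinase of the endoplasmic reticulum, EIF2AK3, rose by 1.76. Amino acid genes moved less as a list, with 6 of 32 higher and 3 lower, beside 18.5% and 20.8% of all genes. SLC3A2, the heavy chain of amino acid exchangers, rose by 2.56 and CTH, which makes cysteine, by 2.45. ASNS, the asparagine synthetase, had means of 40.8 and 40.00 RPKM and was not called. Its means were 16.2 RPKM in control cells and 36.9 RPKM with HC alone. Of the endoplasmic reticulum list, 17 of 35 tested members were higher and 0 lower by limma (1 lower at an unadjusted p under 0.05 whatever its fold), with a median of 0.42. HSPA5, the chaperone BiP, had 162, 163 and 159 RPKM and then 536, 538 and 543 RPKM, a log2 change of 1.74 (SE 0.03, limma adjusted p = 6.03e-08). DNAJB9 rose by 3.22, HERPUD1 by 2.12 and XBP1 by 1.32.

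**Figure D2:**
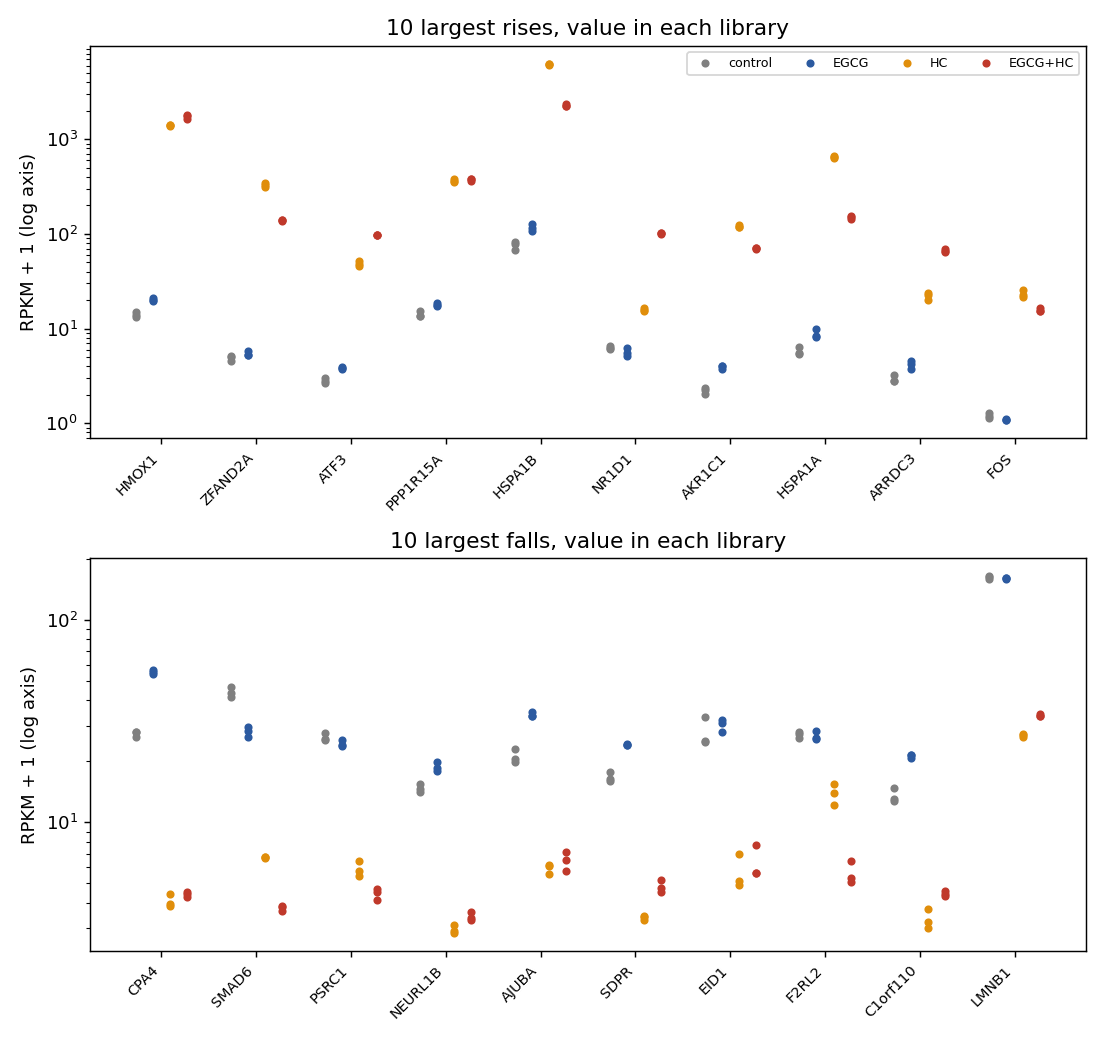
RPKM + 1 (log y axis) in each of the 12 libraries of 1321N1 for the 10 largest rises (top) and the 10 largest falls (bottom), 3 points a group. In all 20 genes the EGCG and EGCG+HC points are separate, which was a condition of being drawn. HSPA1B stands at a mean of 6176 RPKM with HC alone against 2294 RPKM with EGCG+HC.

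Immediate early and MAPK feedback genes had the highest median of the lists, 1.52, with 25 of 32 tested members higher and 1 lower. FOS, a subunit of AP-1, had 0.0960, 0.0800 and 0.0700 RPKM with EGCG and 14.2, 15.6 and 14.3 RPKM with EGCG+HC. The MAPK phosphatase DUSP6 and the zinc finger factor EGR1 rose by 2.77 and 3.62, JUN rose by 2.36 and MYC by 1.96. The member that fell was CYR61, a matricellular protein, by 1.31. NR1D1, the nuclear receptor REV-ERBalpha of the circadian clock, had 4.16, 4.53 and 5.22 RPKM and then 102, 102 and 99.2 RPKM, and ARRDC3, an arrestin-domain protein, had 3.24, 3.52 and 2.72 RPKM and then 67.8, 65.2 and 63.8 RPKM. Both were among the 10 largest rises. Cytokine and NF-kB genes had 10 of 20 tested members higher and 1 lower. IL8 rose from 0.213 to 7.47 RPKM, and IL11, LIF and CXCL3 rose by 2.09, 1.98 and 1.92, while PTX3 fell by 0.72 and the inhibitor NFKBIA had a log2 change of -0.44 and was not called.

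Mitosis genes were mostly lower. By limma 37 of 50 tested members fell and 0 rose, with 2 higher at an unadjusted p under 0.05, and the median was -1.03. KIF20A, a kinesin of cytokinesis, had 68.1, 67.5 and 68.1 RPKM with EGCG and 13.5, 13.6 and 14.3 RPKM with EGCG+HC, a log2 change of -2.22 (SE 0.03, limma adjusted p = 4.71e-08). The phosphatase CDC25B went from 39.2 to 9.71 RPKM, the topoisomerase TOP2A from 107 to 29.7 RPKM, and the kinase PLK1 from 44.7 to 14.1 RPKM. CCNB1, CDK1 and MKI67 changed by -1.43, -0.91 and -1.39, and AURKA had a log2 change of -0.47 and was not called. Of the DNA replication list 32 of 48 tested members fell and 0 rose by limma, with 5 higher at an unadjusted p under 0.05, 1 called higher after rescaling to a common median, and a median of -0.78. The helicase subunits MCM3 and MCM5 changed by -1.35 and -1.32, GINS1 by -1.34, and PCNA, the sliding clamp, went from 141 to 71.5 RPKM. LMNB1, the nuclear lamina protein lamin B1, had 157, 159 and 159.7 RPKM and then 32.5, 32.6 and 33.2 RPKM. Among histone genes, 7 of 15 were higher and 4 lower. HIST1H2BJ and HIST1H2BD rose by 1.45 and 1.33, while the linker histones H1F0 and H1FX fell by 1.62 and 1.45. Canonical histone transcripts mostly lack a poly(A) tail, so libraries of polyadenylated RNA measure them poorly.

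The growth arrest and DNA damage list had 10 of 24 members higher and 4 lower. CDKN1A, the cyclin-dependent kinase inhibitor p21, had 12.4, 13.6 and 13.3 RPKM and then 94.3, 93.99 and 93.1 RPKM, a log2 change of 2.75 (SE 0.04, limma adjusted p = 4.71e-08). GADD45A rose by 3.12 and GADD45B by 2.78, and MDM2 rose by 0.78. CCNG1, CDKN2C, CCND1 and FDXR were the members that fell. Of 31 apoptosis regulators tested, 5 were higher and 6 lower, near the shares of all genes (18.5% and 20.8%). PMAIP1, the BH3-only protein NOXA, went from 18.6 to 90.4 RPKM. ENDOG, a mitochondrial nuclease, went from 27.03 to 10.05 RPKM, BCL2L2 changed by -1.08 and CASP6 by -1.04. BAX, BCL2L1 and MCL1 had log2 changes of -0.33, -0.40 and 0.51 and were not called.

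**Figure D3:**
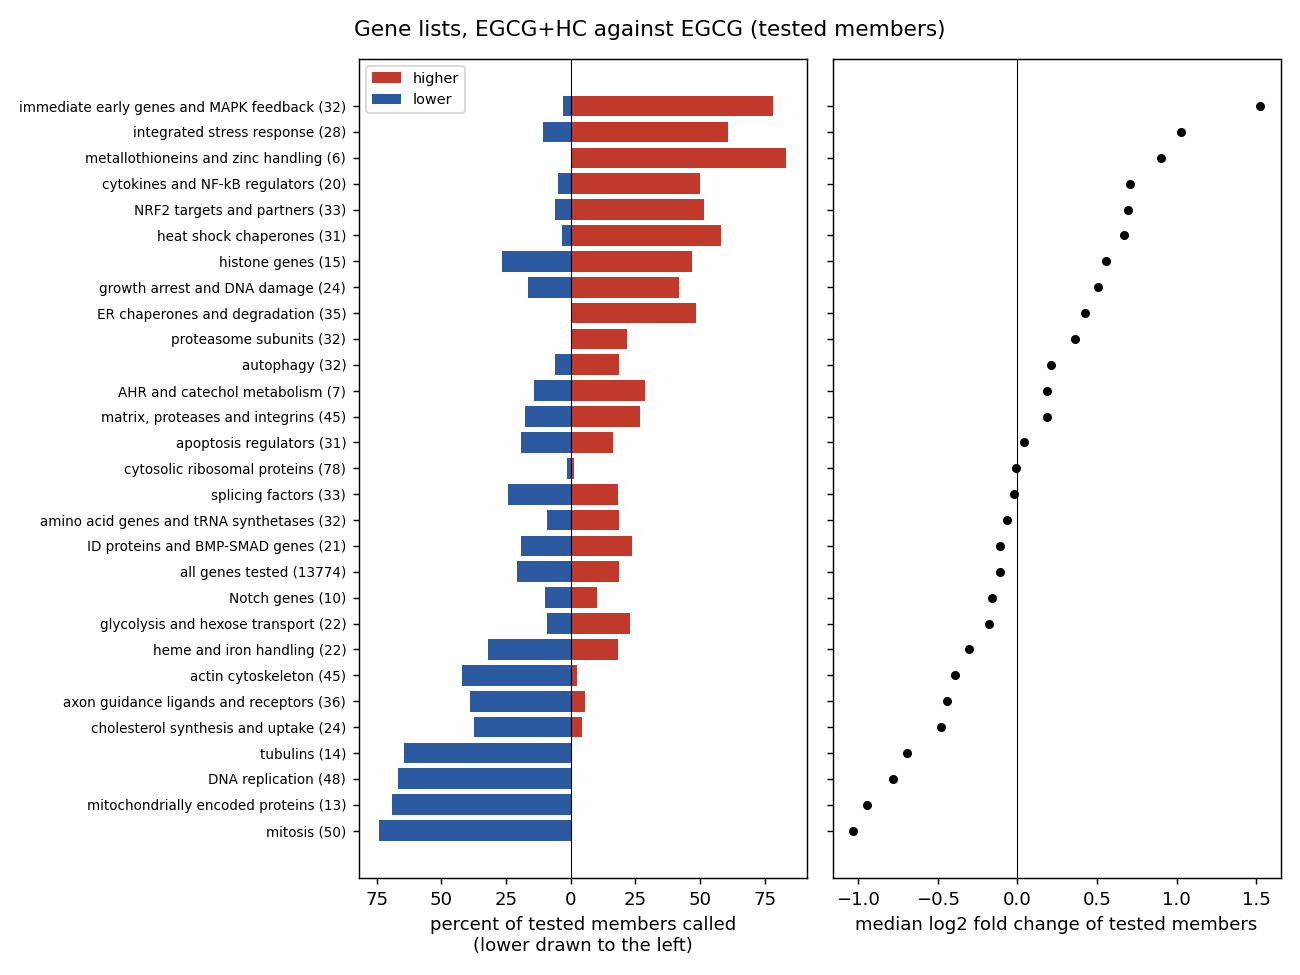
Left, the percent of tested members of each list called higher (right of 0) or lower (left of 0) in EGCG+HC against EGCG, with the number tested in parentheses. Right, the median log2 fold change of the same members, from 1.52 for the immediate early list to -1.03 for mitosis, beside -0.11 for all genes tested.

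Of the 13 protein genes of the mitochondrial genome 9 fell and 0 rose by limma, none of them higher at an unadjusted p under 0.05 either, with a median of -0.94. MT-ATP6, a subunit of ATP synthase, had 3217, 3288 and 3342 RPKM with EGCG and 1355, 1452 and 1605 RPKM with EGCG+HC, and MT-CO1, a subunit of cytochrome oxidase, had 3569, 3572 and 3810.2 and then 2182, 2289.8 and 2344 RPKM. The log2 change of MT-CO1 was -0.68, but -0.21 and no longer called with quantile normalization. MT-ND1 had a log2 change of -0.52 and was not called. These 13 genes took 9.89%, 9.62% and 10.2% of all RPKM with EGCG and 5.67%, 6.12% and 6.57% with EGCG+HC. The groups did not overlap and the exact two-sided permutation test gave p = 0.1, the smallest that 3 against 3 libraries allow. With all 32 mitochondrial genes the shares were 10.0% ± 0.33 (SD, n = 3) and 7.55% ± 0.43 (SD, n = 3), but that sum counts the ribosomal RNAs MT-RNR1 and MT-RNR2, which EGCG replicates 2 and 3 list at 0 and which stood higher in EGCG+HC than in EGCG replicate 1. Glycolysis and hexose transport had 5 of 22 tested members higher and 2 lower, beside 18.5% and 20.8% of all genes. The glucose transporter SLC2A3 rose from 4.59 to 33.96 RPKM and the hexokinase HK2 from 13.3 to 37.8 RPKM, while HK1 went from 55.7 to 29.02 RPKM and GAPDH, with means of 1692 and 1303 RPKM, was not called.

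Of the actin list 19 of 45 tested members fell and 1, MYL12A, rose, with a median of -0.39. ACTG1 went from 604 to 185 RPKM and ACTB from 1535 to 687 RPKM, and CNN2, a calponin, changed by -1.60. Of the tubulins 9 of 14 fell and 0 rose by limma (1 higher at an unadjusted p under 0.05), TUBB from 914 to 417 RPKM. Tubulin and actin genes have close paralogs and pseudogenes that can share reads. Axon guidance genes had 14 of 36 tested members lower and 2 higher. The ephrin EFNA4 changed by -1.36, the receptor EPHB4 by -1.34 and PLXNA1 by -1.26, whereas SEMA4D rose by 1.87. In the matrix list 12 of 45 were higher and 8 lower, beside 18.5% and 20.8% of all genes. SNAI1, a repressor of epithelial genes, had 0.143, 0.0380 and 0.167 RPKM with EGCG and 11.4, 11.03 and 9.49 RPKM with EGCG+HC, the proteases MMP3 and MMP1 rose by 1.95 and 1.88, and COL1A1 and TIMP3 fell by 1.40 and 1.36.

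Of 21 BMP signalling genes tested, 5 were higher and 4 lower, near the shares of all genes (18.5% and 20.8%). SMAD6, an inhibitory SMAD, had 25.5, 27.2 and 28.4 RPKM and then 2.81, 2.66 and 2.87 RPKM, a log2 change of -2.89 (SE 0.05, limma adjusted p = 7.18e-08), whereas the other inhibitory SMAD, SMAD7, rose by 1.24. ID1 and ID3, inhibitors of basic helix-loop-helix factors, went from 46.8 to 16.6 RPKM and from 37.1 to 11.8 RPKM, while ID2 rose from 4.18 to 19.6 RPKM. Of 10 Notch genes tested 1 rose and 1 fell: HES1, a target gene, rose by 1.88, and LFNG, a glycosyltransferase that modifies Notch, changed by -2.06. The other large falls were CPA4, a carboxypeptidase, with 54.00, 55.5 and 53.2 RPKM and then 3.44, 3.51 and 3.28 RPKM and a log2 change of -3.65 (SE 0.04, limma adjusted p = 1.03e-08), and PSRC1, NEURL1B, AJUBA, SDPR, EID1, F2RL2 and C1orf110, whose log2 changes lay between -2.46 and -2.25. The rule that named these genes required groups that did not overlap, which held in 82% of all genes tested. The long noncoding PTCSC3 fell more than any other gene tested, from 175, 158 and 157 RPKM to 9.83, 7.82 and 11.5 RPKM, and was named after its values were seen. Among other genes that are not protein-coding or were not matched in the reference annotation, RP11-12M5.4 and LINC00431 rose by 4.41 and 4.06.

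Cholesterol synthesis genes had 9 of 24 tested members lower and 1 higher, with a median of -0.48. MVK, mevalonate kinase, went from 9.02 to 2.28 RPKM. In the list of AHR and catechol metabolism genes 2 of 7 were higher and 1 lower. The lower member, ARNT, the partner of the aryl hydrocarbon receptor, changed by -0.61 and lost its call after rescaling to a common median (-0.53) and without EGCG+HC replicate 1 (-0.57). TIPARP, a target of the aryl hydrocarbon receptor, rose by 2.01 and AHRR by 1.04, the latter short of the limit with a pseudocount of 5 (0.53). Proteasome genes had 7 of 32 higher and 0 lower by limma (4 lower at an unadjusted p under 0.05), beside 18.5% and 20.8% of all genes. After rescaling to a common median 11 were higher. PSMD5 rose most, by 1.92, from a mean of 0.1 RPKM with EGCG to 3.15 RPKM with EGCG+HC. The assembly factor POMP rose by 0.84. Autophagy genes had 6 of 32 higher and 2 lower, beside the same shares of all genes. Among them GABARAPL1 rose by 2.19 and MAP1LC3B by 1.84, and the receptor SQSTM1 went from 62.3 to 184 RPKM. Cytosolic ribosomal protein genes hardly moved, with 76 of 78 not called and a median of -0.01. Splicing factors had 6 of 33 higher and 8 lower, near the shares of all genes (18.5% and 20.8%), or 7 and 3 after rescaling to a common median. The kinase CLK1 rose by 2.69 and TRA2A by 1.31. Of 5 glial markers tested 1, SOX9, was called, with a rise of 0.81.

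The response to HC was then compared with and without EGCG in all 12 libraries. This took the log2 change of EGCG+HC against EGCG minus that of HC against control. The controls held ethanol and the cells given EGCG alone may not have, so an effect of ethanol cannot be told apart from this difference. Of 13512 genes tested, 3100 differed (22.9%): in 1340 (9.92%) the change was more positive with EGCG and in 1760 (13%) more negative, a split that was 1541 and 1428 with quantile normalization. The HSP70 pair rose less in the presence of EGCG. HSPA1A had a mean of 4.74 RPKM in control cells and 647 RPKM with HC, a log2 change of 6.82, against 4.10 with EGCG, so the difference was -2.73 (SE 0.11, adjusted p = 2.20e-08). Of 31 heat shock members 17 had a more negative change with EGCG and 0 a more positive one by limma (1 at an unadjusted p under 0.05), with a median difference of -0.62 beside -0.10 for all genes. Of the NRF2 list 21 of 33 were more negative and 0 more positive by limma (3 at an unadjusted p under 0.05), with a median of -0.76, but HMOX1 differed by -0.21 (SE 0.06, adjusted p = 0.0127) and was not called, since it fell short of the 1.5-fold limit. In the amino acid list 17 of 32 members were more negative and 1 more positive, with a median of -0.67. The integrated stress response had 12 of 28 more negative and 0 more positive by limma (2 at an unadjusted p under 0.05), with a median of -0.53. Of the cholesterol list 18 of 24 were more negative, with a median of -1.12. HMGCS1, which begins this pathway, had means of 9.05 and 36.1 RPKM without and with HC alone, and of 27.4 and 21.8 RPKM in the presence of EGCG. The difference was -2.20 (SE 0.10, adjusted p = 3.26e-08).

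Mitosis and splicing genes went the other way. In 28 of 50 mitosis members the change was more positive with EGCG, in 0 more negative by limma (4 at an unadjusted p under 0.05), and the median difference was 0.67, and the changes themselves were falls: KIF20A had a log2 change of -2.99 without and -2.22 with EGCG. In 18 of 33 splicing factors the change was also more positive. NR1D1 rose by 1.34 with HC alone and by 4.18 with EGCG, a difference of 2.84 (SE 0.09, adjusted p = 7.03e-09). SAMD11 fell by 2.25 with HC alone and rose by 0.66 with EGCG, from a level that was 22.1 RPKM in control cells and 1.52 RPKM with EGCG. The comparison with and without EGCG shares the 3 EGCG and 3 EGCG+HC libraries with the comparison above, so the values of a gene in them are not independent.

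**Figure D4:**
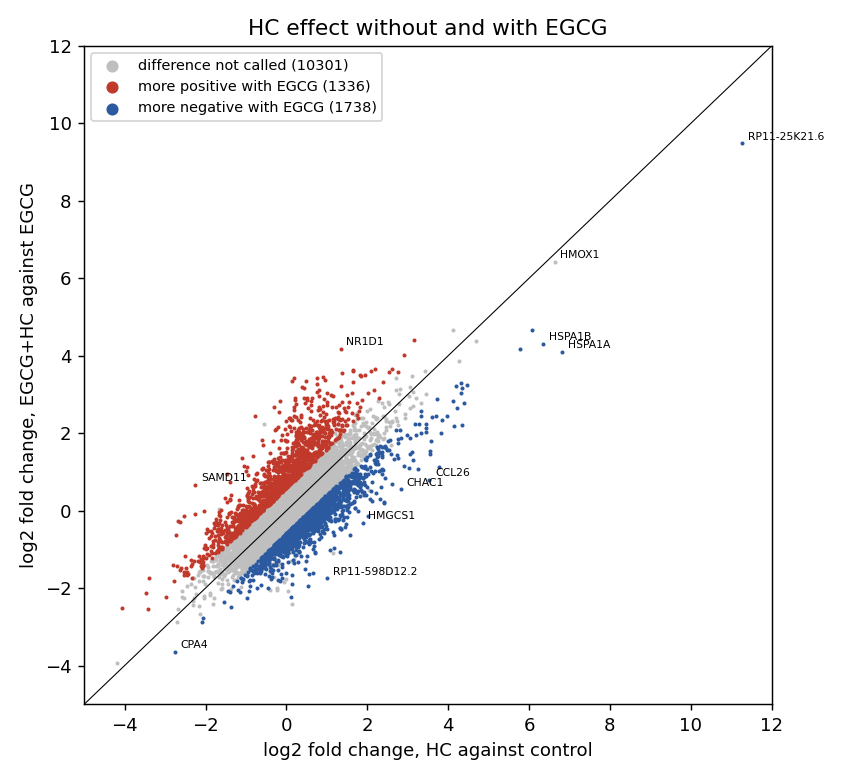
Log2 fold change of EGCG+HC against EGCG (y axis) by that of HC against control (x axis) for the 13375 genes tested in both comparisons. Genes whose difference was called lie off the line of equal change, 1336 above it and 1738 below, with NR1D1 above and HSPA1A below.

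Finally, 201 of the 1239 genes set apart had a mean of at least 1 RPKM over the 6 libraries. Of these, 95 were matched to an entry in the reference annotation, and 88 of the 95 have 1 exon. They include 63 pseudogenes, 11 mitochondrial ribosomal or transfer RNAs and 3 protein-coding genes. MT-RNR2, the large ribosomal RNA of mitochondria, had 656, 0 and 0 RPKM with EGCG and 2695, 2794 and 2663 RPKM with EGCG+HC. MT-RNR1 had 198, 0 and 0 RPKM, and then 1137, 1170 and 1084 RPKM. RP11-572P18.1, RNA5-8SP6 and CTD-2328D6.1 followed with EGCG+HC means of 86.7, 73.4 and 71.3 RPKM. Of 233 genes of 1 exon at 1 RPKM or more in EGCG replicate 1 and above 0 in EGCG+HC, 95 were at 0 in EGCG replicates 2 and 3, against 5 of 11123 genes with more exons. All 3 control libraries had a value above 0 for 189 of the 201 genes. These zeros follow the structure of the genes and only these 2 libraries, so no change is reported for them, and their source was not tested. Against EGCG replicate 1 alone, with no test, 83 of the 201 were at least 1.5-fold higher in EGCG+HC and 44 at least 1.5-fold lower.

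**Figure D5:**
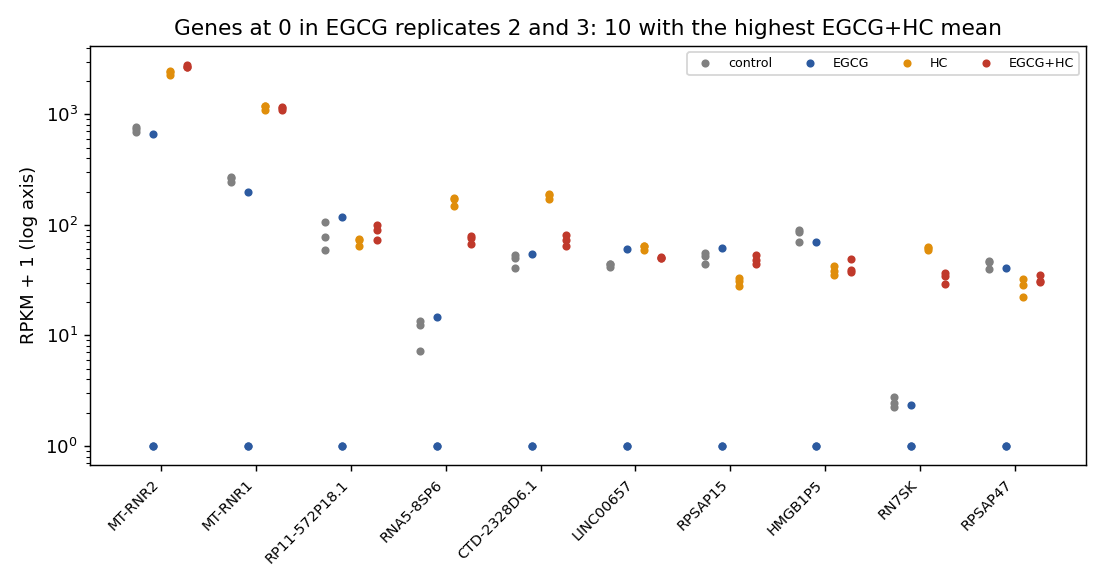
RPKM + 1 (log y axis) in each of the 12 libraries of 1321N1 for the 10 genes set apart with the highest EGCG+HC mean. In each, EGCG replicates 2 and 3 lie at 0 RPKM, drawn at 1, while EGCG replicate 1 lies between 1.36 RPKM for RN7SK and 656 RPKM for MT-RNR2.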

How the data were processed

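RNA of 1321N1 cells was measured in 12 libraries, 3 each of control, EGCG, HC and EGCG+HC. The authors sequenced TruSeq libraries with paired ends, trimmed the reads, evaluated read quality with FastQC and deposited RPKM values from CLC Genomics Workbench on GRCh37 (hg19). The supplement names transcripts by Ensembl IDs, but for the annotation release and the way reads were counted, nothing is given in the sources used here. Gene symbols turned into dates by spreadsheet software were left out (26 for EGCG, 27 for EGCG+HC), and the sheets were joined by symbol. LN18 was not analysed here. Symbols were matched to GENCODE v44lift37 for type and position, and sequences are from RefSeq, GRCh38.p14.

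Genes at 0 in EGCG replicates 2 and 3 only were set apart. The others were filtered to a 6-library mean of 1 RPKM or more and tested on log2(RPKM + 1) with limma 3.58.1 (R 4.3.3, trended empirical Bayes) and Benjamini-Hochberg adjustment over all genes tested. RPKM are not counts, so no count model was used, and low values carry the largest error. The difference of HC responses was fitted on 12 libraries. The script was tested on simulated data.

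The members and the 32 gene lists were chosen with earlier results of these data known. Named genes were the 10 largest rises and 10 largest falls among called protein-coding genes whose higher group reached 10 RPKM and whose groups did not overlap, 3 of other types, up to 4 called members a list with defining members, 5 a direction for the difference of responses, and 5 genes set apart. Which members define a list was settled after values were seen. The lists hold 981 genes in 996 places, of which 827 were tested, 102 had under 1 RPKM, 65 were not listed for both groups and 2 were set apart. Only tested members are counted. Some list members are counted but not reported here by name. Alternatives were other pseudocounts, filters, scalings, thresholds, a replicate block and leaving out libraries.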

Additional observations from a re-analysis of the deposited data

Results flagged for a closer look

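The response to HC differed with and without EGCG in 3100 genes by limma. Of the named genes below, the largest rises and falls were chosen for their change in EGCG+HC against EGCG, which is part of this difference. The others were picked out by the test of the difference itself. The difference is the log2 change of EGCG+HC against EGCG minus that of HC against control. Among the largest rises and falls of the report it was -2.73 for HSPA1A, -2.04 for HSPA1B, -1.60 for AKR1C1, -1.39 for ZFAND2A and -1.80 for RP11-25K21.6, all of which rose less with EGCG, and -1.30 for F2RL2 and -0.90 for CPA4, which fell more. It was 1.10 for ARRDC3, 1.25 for RP11-12M5.4 and 2.84 for NR1D1, which rose more.

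Of the genes with the most negative differences, CCL26, a chemokine, differed by -2.74, with a mean of 0.505 RPKM in control cells, 16.4 RPKM with HC, 2.85 RPKM with EGCG and 5.66 RPKM with EGCG+HC. CHAC1, which degrades glutathione, differed by -2.27, HMGCS1 by -2.20 and RP11-495P10.9 by -2.65. RP11-598D12.2 and ANKRD30BL differed by -2.76 and -2.40, but their EGCG libraries disagree: RP11-598D12.2 had 0.713, 18.9 and 16.5 RPKM and ANKRD30BL had 5.51, 38.2 and 36.2 RPKM in EGCG replicates 1, 2 and 3. Of the genes with the most positive differences, RP11-221N13.4 differed by 3.22, RP11-54A4.2 by 3.21, RP11-359D14.3 by 3.21, RP11-446N19.1 by 3.01 and RP11-142A5.1 by 2.99. Among protein-coding genes SAMD11 differed by 2.91, CAND2 by 2.82, PEBP4 by 2.56 and BX088651.2 by 2.47. The protein-coding genes that are not also among the 5 most positive or 5 most negative of all genes were named after their values were seen.

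Outside the comparison, 47 genes averaged 1 RPKM or more in the EGCG+HC libraries and had no entry among the EGCG values, so they could not be tested. The names of all 47 lie in a single stretch of the alphabet, from RP11-966I7.3 to TMEM178A. Why the groups list different genes was not tested, so a missing entry is not read as a missing transcript. SPINK4, a secreted protease inhibitor, had 7.71, 8.13 and 8.33 RPKM with EGCG+HC, and RP3-438O4.4 had 8.98, 8.47 and 7.21 RPKM. All 25597 genes listed for EGCG are also listed for EGCG+HC, and 4833 are listed for EGCG+HC only.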

How the results depend on the processing

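For EGCG+HC against EGCG, 5420 genes were called (2554 higher, 2866 lower). The count was 2650 (1414 and 1236) with a pseudocount of 5, 1979 (915 and 1064) among genes averaging 10 RPKM or more, where fewer genes were tested, 10978 (4670 and 6308) whatever the fold, 2295 (1420 and 875) at 2-fold or more and 3124 (1585 and 1539) with Bonferroni adjustment. Leaving out each library in turn gave 5277 to 5618 genes, 2407 to 2716 higher and 2771 to 2947 lower. With EGCG replicate 1 as the only EGCG library, the median log2 change of the genes tested in the main fit was -0.08. In that fit the spread of EGCG was assumed to be that of the other group, and the filter was applied again to the libraries kept. Rescaling to a common median gave 5204 (2873 and 2331). The other pseudocount, filter and scalings, the genes set apart kept in and the fit on 12 libraries stayed within 1.5 times. For the difference of HC responses, 3100 genes were called (1340 and 1760), 1071 (488 and 583) among genes with at least 10 RPKM, and 2953 to 3171 when a library was left out (1232 to 1362 and 1692 to 1829). Its split turned to 1541 and 1428 with quantile normalization. With the replicate number as a block the counts were 5426 and 3107. Same-numbered libraries had correlations of -0.07, -0.05 and -0.06 in their deviations, so no pairing was visible. Whether same-numbered libraries were handled together cannot be told from these values. The mitochondrial share differed by -2.45 percentage points with all genes and by -3.77 with the 13 protein genes, a sum that leaves out the other mitochondrial RNAs.

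Of 175 named genes, 159 kept their direction and their side of the limits under all 17 alternative fits of this comparison. With a pseudocount of 5 AHRR, ARNT, BCL2L2, CCL26, GCLC, MCM2, SAMD11 and SOX9 fell short of the 1.5-fold limit. Under other scalings ARNT, MCM2 and MT-CO1 lost their call, and CHAC1, HSP90AB1, HSPA8 and MCL1 gained one. RP11-598D12.2 gained a call without EGCG replicate 1 and in the fit on 12 libraries. ANKRD30BL, not called at -1.06, was higher at 0.64 with EGCG replicate 1 as the only EGCG library and lower at -1.91 without that replicate. Of 29 list medians 22 kept their sign, and the other 7 are the lists of amino acid, apoptosis, ribosomal protein, splicing, histone and heme and iron genes and the glial markers. Precision is limited by 3 libraries a group and, for low genes, by depth.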
